A study of Mus musculus with 4 samples.

Results

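Integrins and cadherins are families of adhesion receptors that anchor a cell to the extracellular matrix and to its neighbours. The genes described here were those whose symbol reads Itga followed by digits or letters, Itgb followed by 1 digit, or Cdh followed by digits, with nothing after. They came to 45 of the 18193 genes with a probe set of their own on the array, 24 integrin genes (16 alpha and 8 beta subunits) and 21 cadherin genes. Where a gene had several probe sets, the brightest by its mean over the 4 arrays stood for it, and the choice did not look at the difference between genotypes. Not all 21 cadherins are classical cadherins: 5 of them (Cdh13, Cdh16, Cdh17, Cdh23 and Cdh26) are of other kinds, and 5 type I and 11 type II genes make up the rest.

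RNA was from mouse embryonic stem (ES) cells, either wildtype (2 arrays) or SOCS3 null (2 arrays). SOCS3 is an inhibitor of signalling from cytokine receptors through JAK kinases to STAT3, the route by which leukemia inhibitory factor keeps mouse ES cells undifferentiated. The labels give no culture condition, clone, passage or method of deletion, and do not say that the 2 arrays of a genotype came from separate cultures, so the spread between them may be technical. Values are intensities on a linear scale, and a change is the mean of log2(intensity + 16) on the SOCS3-null arrays minus that on the wildtype arrays, with its standard error (SE). A gene was called, and is said to have risen or fallen, at an adjusted p under 0.05 (limma, Benjamini-Hochberg over all 12732 genes tested).

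An integrin is a pair of 1 alpha and 1 beta subunit, and the pair decides which ligand is held. Itga3, Itga6 and Itga7 bind laminins, Itga1, Itga2 and Itga10 bind collagens, and Itga5, Itga8, Itgav and Itga2b bind proteins with the tripeptide Arg-Gly-Asp (RGD), such as fibronectin and vitronectin. Inside the cell talin, kindlin and the integrin-linked kinase complex join the beta subunit to actin. Classical cadherins bind their own kind on the next cell and are tied to actin by catenins. In the early mouse embryo E-cadherin (Cdh1) holds the cells together, while laminin and type IV collagen laid down by the primitive endoderm form the first basement membranes, which cells grip with integrins that contain Itgb1.

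The upstream sequences of 6 of the 10 genes that changed are shown first, to give the sequence context of receptor genes that rose together. In RefSeq's promoters (assembly GRCm38.p6) there were 32 entries for 28 of the 45 genes, and none for Itga6, Itga7, Cdh4 and Cdh5. Below are the 250 bases before the start of transcription for 5 genes that rose (Itga3, Itga1, Itga5, Itgav and Itgb1) and for Itgb7, which fell, each 5′ to 3′ on the gene's strand. Capitals mark matches to the 4 motifs searched on both strands.
Itga3, chr11:95076715-95076964, minus strand: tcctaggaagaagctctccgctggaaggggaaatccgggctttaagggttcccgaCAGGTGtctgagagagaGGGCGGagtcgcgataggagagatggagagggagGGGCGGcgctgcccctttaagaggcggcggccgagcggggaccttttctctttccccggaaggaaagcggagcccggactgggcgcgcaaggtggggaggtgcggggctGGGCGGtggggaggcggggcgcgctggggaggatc
Itga1, chr13:115101965-115102214, minus strand: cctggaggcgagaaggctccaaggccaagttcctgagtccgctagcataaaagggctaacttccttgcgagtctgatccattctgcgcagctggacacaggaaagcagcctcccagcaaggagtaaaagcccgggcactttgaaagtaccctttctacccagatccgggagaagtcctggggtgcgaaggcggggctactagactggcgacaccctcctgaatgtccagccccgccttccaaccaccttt
Itga5, chr15:103366792-103367041, minus strand: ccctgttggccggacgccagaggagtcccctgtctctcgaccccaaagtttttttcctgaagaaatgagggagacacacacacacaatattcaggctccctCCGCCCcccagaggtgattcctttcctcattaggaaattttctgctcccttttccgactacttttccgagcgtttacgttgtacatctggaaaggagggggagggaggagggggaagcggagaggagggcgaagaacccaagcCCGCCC
Itgav, chr2:83724147-83724396, plus strand: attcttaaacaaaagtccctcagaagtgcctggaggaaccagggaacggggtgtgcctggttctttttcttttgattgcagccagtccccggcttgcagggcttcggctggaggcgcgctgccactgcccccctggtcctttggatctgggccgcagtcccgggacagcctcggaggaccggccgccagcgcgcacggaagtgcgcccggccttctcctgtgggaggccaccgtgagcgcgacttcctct
Itgb1, chr8:128685404-128685653, plus strand: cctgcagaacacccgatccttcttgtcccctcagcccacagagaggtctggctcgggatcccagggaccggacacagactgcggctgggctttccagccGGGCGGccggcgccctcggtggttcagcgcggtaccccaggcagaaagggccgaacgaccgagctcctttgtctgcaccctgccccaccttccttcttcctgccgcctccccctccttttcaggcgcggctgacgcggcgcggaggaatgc
Itgb7, chr15:102231936-102232185, minus strand: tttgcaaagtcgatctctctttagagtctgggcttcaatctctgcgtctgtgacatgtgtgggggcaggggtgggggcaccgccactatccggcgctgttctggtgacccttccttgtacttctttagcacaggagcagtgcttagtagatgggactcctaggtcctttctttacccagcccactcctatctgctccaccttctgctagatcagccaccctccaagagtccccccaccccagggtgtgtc

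The first motif was the GC box bound by Sp1, GGGCGG. The second was the E-box bound by Snail repressors, which reads CACCTG. The GATA motif, for the factors that lead endoderm, was AGATAA. The STAT motif, for the factors that SOCS3 restrains, was TTCNNNGAA and is the same on both strands. The capitals of Itga5 and Itgb1 are GC boxes only, and Itga3 holds 3 GC boxes and 1 Snail E-box. Itga3 has a second entry, chr11:95069199-95069448, not printed, with 1 GC box, no Snail E-box and 5 CpG dinucleotides. Itga1, Itgav and Itgb7 hold no match, and none of the 6 stretches has the letters of the GATA or STAT motif. Among all 32 entries of the family the GC box was in 11, the Snail E-box in 7, the GATA motif in 2 (Cdh7 and Itgax) and the STAT motif in 1 (Itga10). Among promoters of all genes (32851 entries) 32.7% held the GC box, 17.2% the Snail E-box, 9.99% the GATA motif and 7.02% the STAT motif. The CpG dinucleotides numbered 22 in the stretch of Itga3, 21 in Itgb1, 18 in Itgav, 11 in Itga5, 10 in Itga1 and 5 in Itgb7, where the median over all promoters was 6. A match is a run of letters and not a measured binding site, and a missing match says only that these letters are not in this window.

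The arrays themselves were alike within genotypes. Array medians lay between 15.8 and 16. Over probe sets, which are not independent, the log2 values of the pair of wildtype arrays correlated at 0.995 and those of the SOCS3-null pair at 0.988, and pairs of unlike genotype at 0.948 to 0.957. Socs3 was at 3024 and 1884 on the wildtype arrays and at 19.3 and 12.9 on the SOCS3-null arrays; the deleted part is not named in the labels, and a probe set outside it would check nothing. The ES cell markers Pou5f1, Sox2, Nanog, Zfp42, Esrrb, Utf1, Dppa5a and Fgf4 all lay above the array medians on every array. Of these 8 markers 2 (Sox2 and Fgf4) fell, which is 25% on 8 genes, beside 9.55% of all genes. The summed intensities of the 8 markers were 62895 and 65906 for wildtype and 53747 and 51463 for SOCS3-null cells. Of 12 markers of the primitive and extraembryonic endoderm, 11 of them tested, 9 rose and 0 fell. That is 81.8% risen, beside 13.1% of all genes. Of the 9, 3 (Gata4, Sox17 and Foxa2) reached the filter only through the SOCS3-null arrays. The sum of the 12 markers went from 169 and 178 to 9995 and 10206, while Hnf4a, Afp and Ttr stayed at or below the array median on all arrays. Of 10 tested fibroblast and feeder markers 0 were called by limma (1, Pdgfrb, had an unadjusted p under 0.05), where 22.7% of all genes were called. Of the 10 changes 8 were above 0, with a median of 0.28, beside -0.0050 over all genes tested. The sum of these markers differed between arrays of the same genotype, at 2228 and 3847 on the wildtype and 3815 and 2503 on the SOCS3-null arrays. In a bulk sample, fewer cells of a type and less RNA per cell cannot be told apart, which holds for every gene below. The part of the endoderm and fibroblast markers in the results that follow was not tested, beyond the values given beside them. Where the array order of the fibroblast sum is named for a gene below, it does not set that gene apart. Other genes described here had the same order, among them Fn1, Ilk, Hspg2, Actn1, Lama5, Lamc1 and Jup, and some, such as Itgav, had another.

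Of the 24 integrin genes 16 reached the filter on dim probe sets and were tested. Of these 7 rose in SOCS3-null cells, 1 fell and 8 did not pass. All 3 laminin-binding alpha subunits, Itga3, Itga6 and Itga7, were among those that rose, with the collagen receptor Itga1, the fibronectin receptor Itga5, the vitronectin receptor Itgav and the shared partner Itgb1. The one that fell was Itgb7, a beta subunit of lymphocytes. As a share of those tested, 43.8% of the integrin genes rose and 6.25% fell, where 13.1% of all 12732 genes rose and 9.55% fell (22.7% called in all); the shares were not tested as a set. The median change of the 16 was 0.57, beside -0.0050 over all genes tested. None of the 16 passed the filter through the SOCS3-null arrays alone. With any 1 of the 4 arrays left out limma called 0 of all genes, these 16 included, so such fits cannot tell one gene's call from another's. At an unadjusted p under 0.05 they gave 6 to 8 of the 16, against 11 with all arrays, where 23% to 37.2% of all genes passed, against 38.5%. The changes with an array left out were 1.09 to 1.25 for Itgav, 0.87 to 1.09 for Itga3 and -1.45 to -1.24 for Itgb7. Without the filter 3 of 24 were called (Itga3, Itgav and Itgb7; 8.96% of all genes) and with a pseudocount of 64 5 of 16 (20.3% of all genes).

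**Figure D1:**
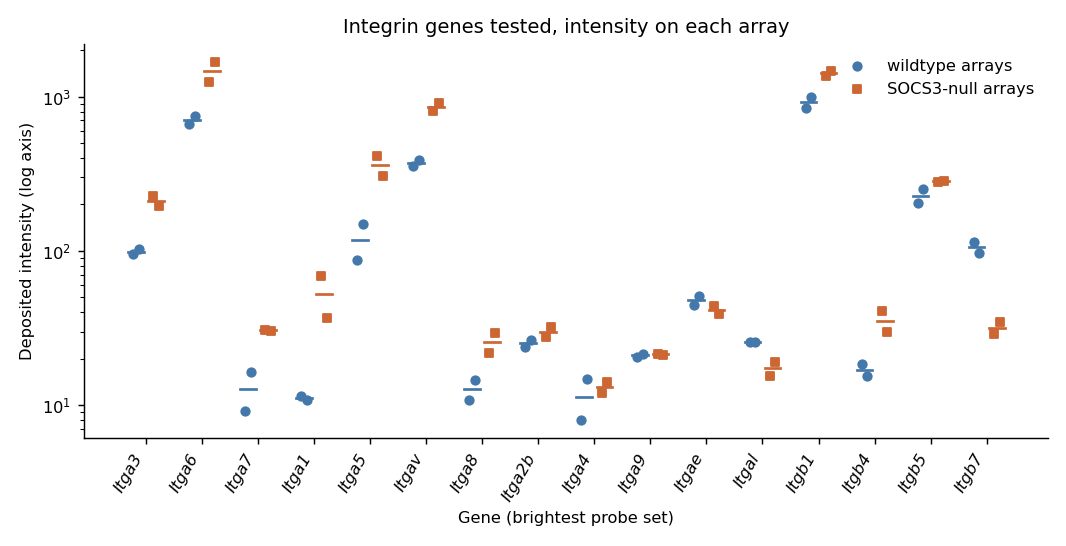
Deposited intensity (log axis) of the 16 integrin genes tested, on each of 2 wildtype arrays (circles) and 2 SOCS3-null arrays (squares), with bars at the group means and genes ordered by ligand class, then beta subunits. Both SOCS3-null points lie above both wildtype points for Itga3, Itga6, Itga7, Itga1, Itga5, Itgav and Itgb1, and below them for Itgb7. They also lie above for Itga8, Itga2b, Itgb4 and Itgb5 and below for Itgae and Itgal, which were not called, so separation does not mark the called genes. The share of all genes whose groups do not overlap was not computed. Levels of different probe sets cannot be compared.

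Among the laminin receptors, Itga6, which pairs with Itgb1 or Itgb4, was at 669 and 747 on the wildtype arrays and at 1243 and 1678 on the SOCS3-null arrays. The change was 1.01 (SE 0.18, limma adjusted p = 0.0323), from 708 ± 55.0 to 1461 ± 308 (SD, n = 2). Itga3, whose main partner is Itgb1, gave 95.7 and 102 for wildtype against 228 and 195 for SOCS3-null cells. Within each genotype its arrays had the same order as the sum of the fibroblast markers. The change of Itga3 was 0.98 (SE 0.11, limma adjusted p = 0.0139), and it was called in 12 of the 12 alternatives that kept all 4 arrays. Itga7, known best from muscle, was dim, with 9.16 and 16.3 for wildtype against 30.6 and 30.5 for SOCS3-null cells. The change of 0.71 (SE 0.15, limma adjusted p = 0.0463) starts near or below the array median, so its size depends on the pseudocount (0.30 at 64 and 1.25 at 1), and at 64 it was not called (limma adjusted p = 0.0628).

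The beta subunits that serve the laminin receptors are Itgb1 and Itgb4. Itgb1, the partner of most alpha subunits on this list, was at 841 and 999 in wildtype and at 1369 and 1462 in SOCS3-null cells. All 4 values were far above the array medians, with a change of 0.62 (SE 0.12, limma adjusted p = 0.0389). As the mean of its probe sets the change was 0.32 (limma adjusted p = 0.106). Itgb4, which pairs with Itga6 in hemidesmosomes, was at 18.5 and 15.5 in wildtype and at 40.8 and 29.9 in SOCS3-null cells. It did not pass (change 0.63, SE 0.14, limma adjusted p = 0.0512), and it passed in 6 of the 11 alternatives that kept all arrays.

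The ligands of these receptors are the laminins. Of 8 laminin chains tested 4 rose (50%, where 13.1% of all genes rose), 0 fell and 4 did not pass, with a median change of 1.04. Lama1, the alpha chain of the embryonic basement membrane laminin, was at 329 and 313 in wildtype and at 12157 and 11685 in SOCS3-null cells, a change of 5.15. The chains that assemble with it, Lamb1 and Lamc1, changed by 3.29 and 3.46, and Lamb2, an alternative beta chain, by 1.41 from 72.7 and 65.9 to 205 and 215 (limma adjusted p of 0.00357 to 0.00661 for the 4). Lama5, at 318 and 365 against 619 and 446, did not pass (0.60, limma adjusted p = 0.107), nor did Lama4 (0.68, 0.128), Lama2 (-0.07) or Lama3 (-0.10). Cd151, a membrane protein of the tetraspanin family that sits beside laminin-binding integrins, rose by 1.06 from 711 and 699 to 1268 and 1742 (limma adjusted p = 0.0298).

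**Figure D2:**
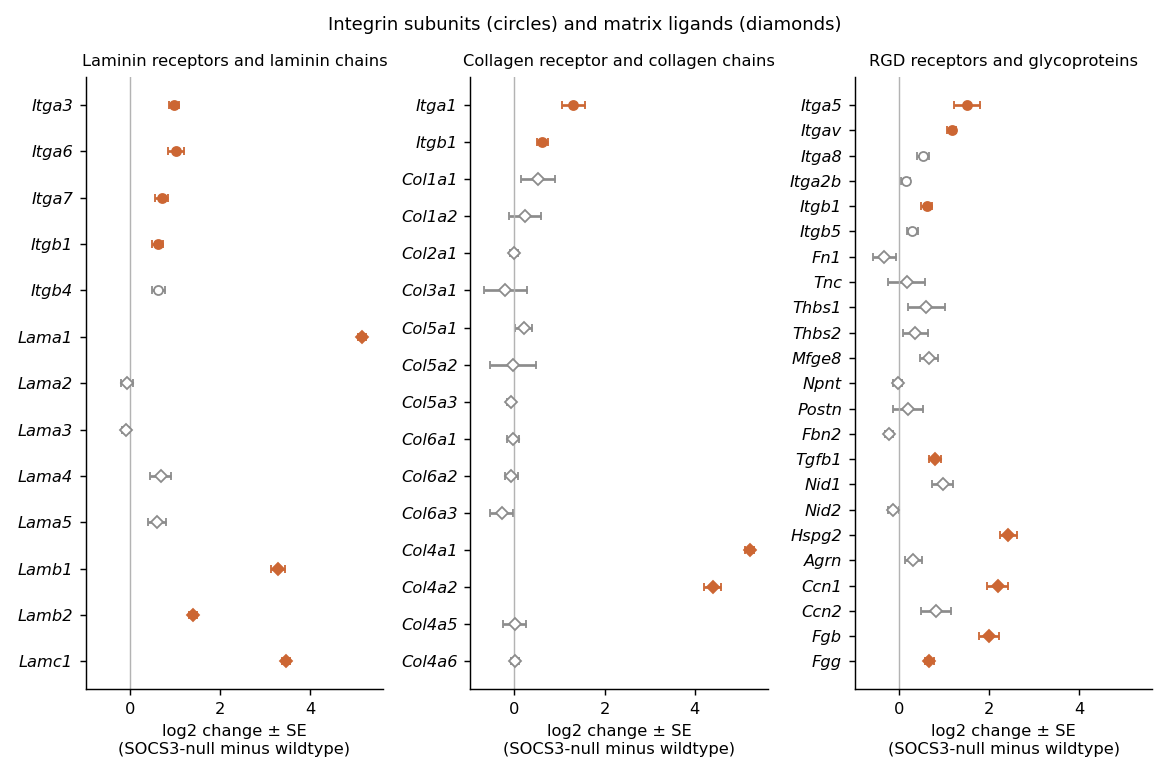
Log2 change ± SE (SOCS3-null minus wildtype, 2 arrays per genotype) of integrin subunits (circles) and of the tested genes of their matrix ligands (diamonds), in 3 panels for laminin, collagen and RGD or other glycoprotein ligands. Filled orange symbols rose and open grey symbols were not called; the subunits lie between 0.15 and 1.51, while Lama1, Lamb1, Lamc1, Col4a1 and Col4a2 lie above 3.

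The collagen receptors were represented by a single tested subunit. Itga1, which with Itgb1 forms a receptor for type IV collagen, was at 11.4 and 10.8 in wildtype and at 68.7 and 36.9 in SOCS3-null cells. Wildtype values lay below the array median and both SOCS3-null values above it, a change of 1.30 (SE 0.25, limma adjusted p = 0.0391). It ran from 0.62 at a pseudocount of 64, where it was not called (limma adjusted p = 0.0800), to 2.09 at a pseudocount of 1. A second probe set of Itga1, too dim to be tested, was at 7.50 and 7.49 in wildtype and at 7.11 and 7.11 in SOCS3-null cells. The other 2 collagen-binding subunits, Itga2 and Itga10, lay below the filter, between 5.60 and 6.33 on every array. Of 14 collagen chains tested 2 rose, 0 fell and 12 did not pass, and the median was -0.0031. The 14.3% that rose is near the 13.1% of all genes. The 2 were the type IV chains Col4a1 and Col4a2, which changed by 5.22 and 4.39, and neither Col4a5 (0.0040) nor Col4a6 (0.01) passed. The fibrillar chains Col1a1, Col1a2 and Col3a1 differed by 0.53, 0.23 and -0.20 and were not called; Col3a1, at 214 and 390 against 367 and 169, had the same order of arrays within each genotype as the sum of the fibroblast markers, of which it is part.

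Of the 4 RGD-binding alpha subunits 2 rose (50% on 4 genes, where 13.1% of all genes rose). Itgav, which forms receptors for vitronectin and for latent TGF-beta, was at 356 and 387 in wildtype and at 808 and 906 in SOCS3-null cells. The change was 1.17 (SE 0.10, limma adjusted p = 0.00944), a ratio of mean intensities of 2.31. Itga5, the fibronectin receptor subunit that pairs with Itgb1, was at 86.9 and 149 in wildtype and at 409 and 307 in SOCS3-null cells. Its change was 1.51 (SE 0.29, limma adjusted p = 0.0385), and within each genotype its arrays had the same order as the sum of fibroblast markers. Of 10 such markers tested 0 were called, but 8 of the 10 changes were above 0. Their median was 0.28, beside -0.0050 over all genes tested. At a pseudocount of 64 the limma adjusted p of Itga5 was 0.0501. Itga8, a receptor subunit for nephronectin, was dim at 10.8 and 14.5 against 21.9 and 29.2 and did not pass (0.53, limma adjusted p = 0.0667), and Itga2b, the platelet fibrinogen receptor subunit, at 23.9 to 31.9, differed by 0.15 (0.331).

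Among the beta partners of Itgav other than Itgb1, only Itgb5 reached the filter. Itgb5, a vitronectin receptor subunit with Itgav, was at 205 and 250 in wildtype and at 281 and 282 in SOCS3-null cells, a difference of 0.30 that did not pass (SE 0.12, limma adjusted p = 0.171; 95% interval -0.05 to 0.64). Its 4 probe sets lay between 0.29 and 0.56, all above 0 and none called. Itgb3, Itgb6 and Itgb8 lay below the filter, between 5.44 and 9.95 on every array.

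The fibronectin gene did not pass the test. Fn1 was at 3836 and 4388 in wildtype and at 4120 and 2595 in SOCS3-null cells, overlapping groups with a difference of -0.33 (SE 0.26, limma adjusted p = 0.428). Without SOCS3-null replicate 2 the difference was 0.0060, and as the mean of probe sets it was -0.86 (limma adjusted p = 0.0959). Vtn, which encodes vitronectin, lay between 4.91 and 5.25 on every array and was not tested. Of 17 tested genes of fibronectin, vitronectin and other glycoprotein ligands 5 rose and 0 fell, with a median of 0.60. The 29.4% that rose stand beside 13.1% of all genes, but 2 of the 5, Fgb and Fgg, had wildtype means below the filter floor and passed it only through the SOCS3-null arrays, so they had to differ. Those that rose were Hspg2, the basement membrane proteoglycan perlecan, by 2.42 from 124 and 179 to 902 and 839, the matricellular gene Ccn1 by 2.19 from 275 and 422 to 1530 and 1700, the fibrinogen chains Fgb by 1.99 and Fgg by 0.67, and Tgfb1, whose propeptide carries an RGD site held by Itgav receptors, by 0.79 from 30.4 and 41.0 to 70.2 and 76.2. Fgg was named after its value was seen, as 1 of 5. Nid1, the linker of laminin to type IV collagen, was at 494 and 491 against 792 and 1219 and did not pass (0.97, limma adjusted p = 0.0576).

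Itgb7 was the integrin gene that fell. It was at 114 and 96.9 in wildtype and at 29.1 and 34.4 in SOCS3-null cells, a change of -1.35 (SE 0.12, limma adjusted p = 0.00945). Its intensity fell to a ratio of 0.301 of the wildtype mean, and the call held in 12 of the 12 alternatives with all 4 arrays. Neither of its known partners moved past the test: Itga4 lay between 7.98 and 14.7 on all arrays (difference 0.10, limma adjusted p = 0.698), and Itgae, which with Itgb7 binds E-cadherin, at 44.8 and 50.7 against 43.8 and 39.0 (-0.15, 0.347). Itga9, of the same class as Itga4, lay between 20.4 and 21.6 and differed by 0.01, and the leukocyte subunit Itgal, at 25.7 and 25.6 against 15.5 and 19.1, by -0.32 (0.0859). Itgam, Itgax and Itgb2, also of leukocytes, lay below the filter, and the leukocyte gene Ptprc was between 5.66 and 6.24 on every array. The ligand of Itga4 with Itgb7, Madcam1, was at 24.9 and 21.7 against 17.4 and 16.9 (-0.24, limma adjusted p = 0.127).

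The probe sets of a gene did not always move together. The 24 integrin genes had 54 probe sets, of which 30 were tested, and over all 27022 probe sets tested 7 of the 30 rose and 1 fell (8.55% and 7.3% of all probe sets). For Itga3 the brighter probe sets rose by 0.98 and 0.96, and the dimmest differed by 0.64 and was not called (limma adjusted p = 0.206). For Itga6 both rose, by 1.01 and 0.61. For Itgav the bright probe set rose by 1.17, while dimmer ones, with wildtype means of 49.7 and 16.2, differed by 0.22 and 0.03 and were not called. For Itgb1 the second bright probe set differed by 0.45 (limma adjusted p = 0.126). The brightest probe set of Itga5, of a kind that may match more than 1 transcript, was at an adjusted p of 0.0525 over probe sets in limma, where a dimmer one rose by 0.76 (0.0471). Of the 10 genes called in the family 6 also had their probe set called over all probe sets: Itga3, Itga6, Itgav, Itgb1, Itgb7 and Cdh5. That fit reads the same probe sets on the same arrays, so it is no separate check, and Cdh5 reached the filter only through the SOCS3-null arrays.

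**Figure D3:**
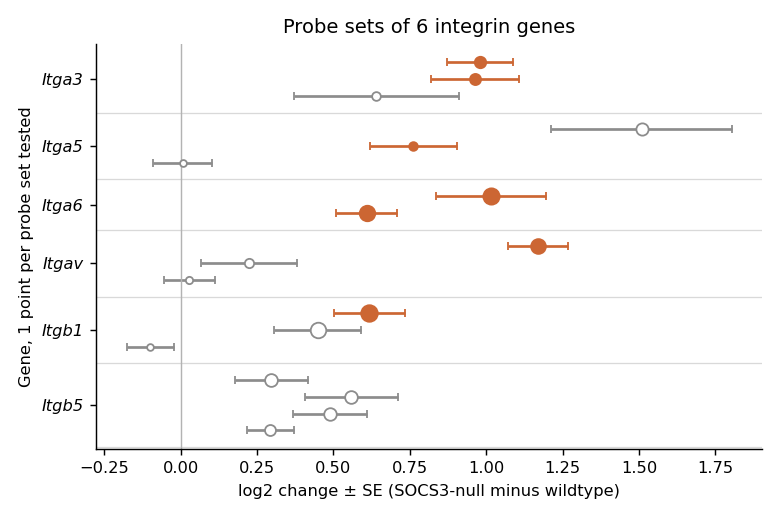
Log2 change ± SE of every tested probe set of 6 integrin genes (SOCS3-null minus wildtype), brightest at the top for each gene, with larger points for brighter probe sets. Filled points rose over all probe sets tested; the dimmest probe sets of Itga5, Itgav and Itgb1 lie near 0 (0.0061, 0.03 and -0.10).

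The proteins that carry the pull of integrins to actin were described through a list of adhesion complex genes. In it 28 genes were tested, 8 of which rose and 0 fell, a share of 28.6% risen against 13.1% of all genes, with a median of 0.17. With the mean of probe sets 10 were called, 8 of them higher, where 23.3% of all genes were called. The parvins Parva and Parvb, which link integrin-linked kinase to actin, rose by 1.97 and 1.94; Parvb went from 174 and 160 to 727 and 650. Ilk, the gene named for integrin-linked kinase, rose by 1.09 from 273 and 340 to 687 and 649. Lims1, another part of that complex, differed by -0.47 (limma adjusted p = 0.0941). Tln1, the talin that switches integrins on, rose by 0.95 from 252 and 326 to 563 and 577 (SE 0.15, limma adjusted p = 0.0250), and Zyx, a protein of mature adhesions, by 1.49. The second talin gene, Tln2, was at 252 and 179 against 165 and 128 and did not pass (-0.50, limma adjusted p = 0.184). The other genes called were Crk, Actn1 and Cd151. The kindlin gene Fermt2 was at 1318 and 1221 against 1216 and 1077 (-0.15, limma adjusted p = 0.386), and the scaffolds Vcl and Pxn differed by 0.20 and 0.35 and were not called. Without the filter 3 of these 30 genes were called, where 8.96% of all genes were.

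**Figure D4:**
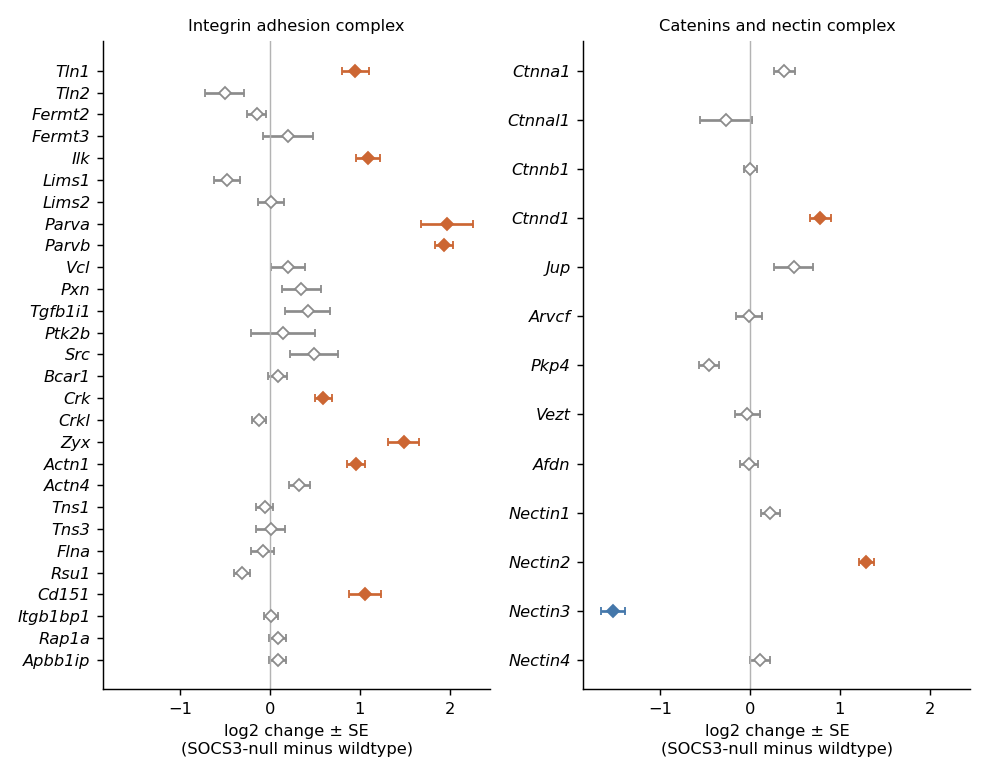
Log2 change ± SE (SOCS3-null minus wildtype) of the tested genes of the integrin adhesion complex (28 genes, left) and of catenins and the nectin complex (13 genes, right). Filled orange symbols rose, the filled blue symbol fell and open grey symbols were not called; Parva and Parvb lie farthest to the right on the left, and Nectin3 is the gene that fell.

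Of the 21 cadherin genes 7 were tested, and of these 2 rose, 0 fell and 5 did not pass. Those that rose were Cdh4 and Cdh5, both below the array median in wildtype cells. The share of 28.6% stands beside the 13.1% of all genes that rose, on 7 genes, and Cdh5 reached the filter only through the SOCS3-null arrays, so the count belongs to the genes that passed. The median change of the 7 was 0.07. In the fits with an array left out, which called 0 of all genes, 1 to 4 of the 7 had an unadjusted p under 0.05 (23% to 37.2% of all genes), against 2 with all arrays (38.5%). The changes were then 0.95 to 1.04 for Cdh5 and 1.08 to 1.88 for Cdh4. With a pseudocount of 64, with no filter, with the filter at the 60th percentile or with the mean of probe sets the count was 1. Those settings called 20.3%, 8.96%, 33.1% and 23.3% of all genes.

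E-cadherin was bright in both genotypes and did not pass the test. Cdh1 was at 1528 and 1458 in wildtype and at 1259 and 1447 in SOCS3-null cells. The difference was -0.14 (SE 0.11, limma adjusted p = 0.397), with a 95% interval of -0.44 to 0.15. Cdh3, P-cadherin, which is the neighbouring gene on chromosome 8, was at 129 and 119 against 99.7 and 116 (-0.18, limma adjusted p = 0.325; interval -0.48 to 0.13). For both, the intervals leave room for a small fall and do not reach a change of 1 in either direction. They rest on the spread between 2 arrays per genotype, which may be technical, so they exclude nothing about separate cultures. Snai1, a repressor of Cdh1 that was added to the description after its value was seen, was at 12.5 and 17.5 in wildtype and at 129 and 120 in SOCS3-null cells (2.19, limma adjusted p = 0.00542). The repressors Snai2, Zeb1 and Zeb2, added with it, differed by -0.05, 0.43 and 0.01 and were not called.

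**Figure D5:**
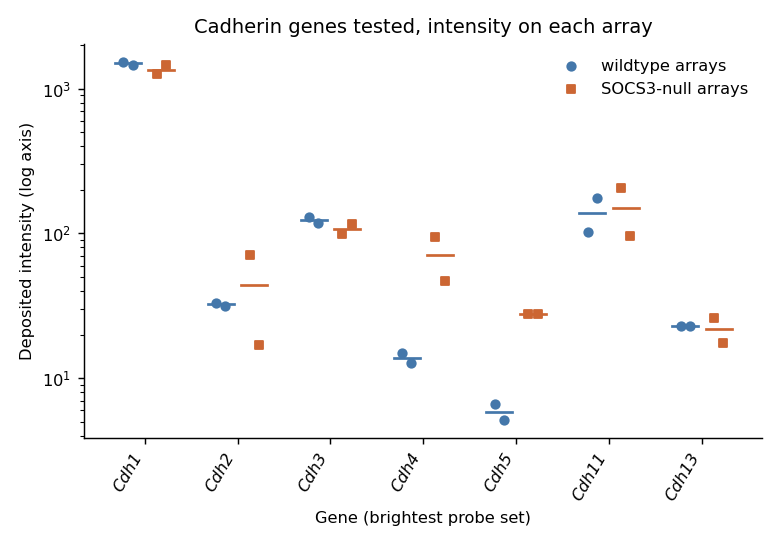
Deposited intensity (log axis) of the 7 cadherin genes tested, on each of 2 wildtype arrays (circles) and 2 SOCS3-null arrays (squares), with bars at the group means. The Cdh1 points lie between 1259 and 1528 in both genotypes, Cdh4 and Cdh5 are higher on both SOCS3-null arrays, and the SOCS3-null points of Cdh2 fall on either side of the wildtype points.

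N-cadherin, Cdh2, was at 33.3 and 31.4 in wildtype and at 71.0 and 17 in SOCS3-null cells. The SOCS3-null arrays lay on opposite sides of the wildtype arrays, on its second probe set too (62.2 and 17.4 against 23.6 and 28.1). The difference of 0.15 had a 95% interval of -1.27 to 1.57 and turned to -0.55 without SOCS3-null replicate 1, so these arrays give no direction for Cdh2. R-cadherin, Cdh4, best known from the nervous system and retina, was at 14.9 and 12.8 in wildtype and at 94.0 and 47.1 in SOCS3-null cells. The change was 1.48 (SE 0.30, limma adjusted p = 0.0419). A second probe set of Cdh4, at 13.1 and 10.6 against 45.9 and 15.8, was not called (0.67). As the mean of its probe sets Cdh4 was not called (1.08, limma adjusted p = 0.0905).

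VE-cadherin, Cdh5, the cadherin of endothelial junctions, was at 6.61 and 5.17 in wildtype and at 27.6 and 27.6 in SOCS3-null cells. Its change of 1.00 (SE 0.08, limma adjusted p = 0.00871) starts below the array medians, which lay near 16, and ran from 0.39 at a pseudocount of 64 to 2.06 at 1. A second probe set of Cdh5, too dim to be tested, was at 5.68 and 5.68 in wildtype and at 5.54 and 5.66 in SOCS3-null cells. Of 10 blood and endothelial markers, 6 of them tested, 2 rose (Tek and Cd68) and 0 fell. That is 33.3% risen on 6 genes, beside 13.1% of all genes. The sums were 412 and 401 for wildtype against 631 and 522 for SOCS3-null cells. Most of that rise was Cd68 alone, at 101 and 90.4 against 266 and 195. Ptprc, Cd34, Kdr, Tie1, Emcn and Hbb-bh1 were at or below the array median on all 4 arrays. Tek, an endothelial receptor, was at 34.7 and 29.5 against 54.6 and 55.2, a change of 0.56 (limma adjusted p = 0.0291), and Pecam1, at 203 to 224 on all arrays, differed by 0.04. The part of such cells in the change of Cdh5 was not tested.

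Cdh11, a type II cadherin of mesenchymal cells, was at 102 and 176 in wildtype and at 205 and 96.4 in SOCS3-null cells. The SOCS3-null values lay on either side of the wildtype values, the difference of 0.07 had an interval of -1.16 to 1.29, and its sign turned without wildtype replicate 1 or SOCS3-null replicate 1 (-0.28 and -0.42). Within each genotype the order of the arrays was that of the summed fibroblast markers (2228 and 3847, then 3815 and 2503). Cdh13, T-cadherin, which lacks a cytoplasmic part, lay between 17.5 and 26 on all arrays (-0.05, limma adjusted p = 0.83).

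Catenins and nectin complex genes are the partners of the cadherins. Among 13 tested there were 2 that rose (Ctnnd1 and Nectin2) and 1 that fell (Nectin3), or 15.4% and 7.69% against 13.1% and 9.55% of all genes, with a median of 0.0046. The share called in all, 23.1%, is near the 22.7% of all genes. With the mean of probe sets 3 were called, 1 of them higher, where 23.3% of all genes were called. Ctnnb1, beta-catenin, was at 10476 and 10409 in wildtype and at 10476 on both SOCS3-null arrays (0.0046, limma adjusted p = 0.975), and the alpha-catenin Ctnna1 differed by 0.38 (0.0963). Ctnnd1, the p120 catenin that keeps cadherins at the membrane, rose by 0.78 from 277 and 321 to 496 and 555 (SE 0.12, limma adjusted p = 0.0238). Jup, plakoglobin, was at 160 and 242 against 299 and 268 and did not pass (0.49, limma adjusted p = 0.194). Nectins are adhesion molecules that act beside cadherins. Nectin2 rose by 1.29 from 230 and 215 to 570 and 565, and Nectin3 fell by 1.53 on the log2 scale, from 554 and 682 to 208 and 198 (limma adjusted p of 0.00665 and 0.00915). Nectin1 and Nectin4 differed by 0.23 and 0.11 and were not called (0.217 and 0.525).

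The remaining 22 genes of the family were too dim for the filter and went untested. They were 8 integrin genes (Itga2, Itga10, Itgam, Itgax, Itgb2, Itgb3, Itgb6 and Itgb8), with intensities of 4.53 to 9.95, and 14 cadherin genes (Cdh6, Cdh7, Cdh8, Cdh9, Cdh10, Cdh15, Cdh16, Cdh17, Cdh18, Cdh19, Cdh20, Cdh22, Cdh23 and Cdh26), with 4.84 to 12.8. All of these values lay below the array medians in both genotypes. Such an intensity is dim, which is not the same as absent, and a change between 2 dim levels could not be measured here.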

How the data were processed

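Total RNA of 4 samples was measured on expression arrays. What was deposited is an intensity per probe set and array, not log transformed; how the authors summarised and normalized them is not given in the sources used here. All 45101 probe sets were above 0, and 19.8% had exactly the same value on at least 2 arrays, which narrows some spreads. Arrays were used as deposited. The 64 control probe sets were left out. Probe sets were named from a platform annotation (34945 with 1 symbol, 932 with several, 9160 with none), and all 45 members matched a RefSeq gene (GRCm38.p6) by gene ID.

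Tests used limma 3.58.1 (R 4.3.3) on log2(intensity + 16), which understates changes of dim genes, with genotype as the only term, over probe sets whose mean reached the 40th percentile (4.72), 1 per gene, 12732 genes. The fit was run on simulated data with independent noise at its own variances, which checks the code and not the calls made here. Members, lists and tests were chosen with earlier results of these data known. Named were all members, with every array's value for those called or with a group mean of at least 100; the 4 largest called changes of each related list; and fixed genes, of which Spp1 and Ptk2 were not matched. Other genes of the lists were named after their values were seen. Alternatives were other pseudocounts, normalizations, filters, eBayes settings, probe set choices, a replicate block and leaving out each array. The number of arrays limits the precision. Figures were drawn with matplotlib 3.10.9.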

Additional observations from a re-analysis of the deposited data

How the results depend on the processing

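With 2 arrays per genotype, limma called 0 to 0 integrin genes and 0 to 0 cadherin genes without any 1 array, as it did for all genes, so those fits say nothing about single calls. The integrin count of 8 was 5 with a pseudocount of 64, 3 with no filter and 5 with the replicate block (Itga5, Itga7 and Itgb1 were lost). The cadherin count of 2 was 1 with a pseudocount of 64, with no filter, with the filter at the 60th percentile and with the mean of probe sets. Of all genes, 20.3% were called with a pseudocount of 64, 8.96% with no filter and 15% with the replicate block. The filter at the 60th percentile called 33.1% and the mean of probe sets 23.3%. Under the other alternatives that kept all arrays the counts were 6 to 10 and 2. Crossing the replicate numbers as a block, an alternative chosen after seeing the data, gave 7 integrin and 2 cadherin calls. The labels do not say that the numbers pair the arrays, and the deviations of same-numbered arrays correlated at -0.120 across genes. Directions of called members did not turn in any alternative. Their groups did not overlap, so leaving out an array or changing the pseudocount could not have turned them. Uncalled genes that turned were Cdh11 (-0.28 and -0.42 without wildtype replicate 1 and SOCS3-null replicate 1; with any array left out -0.42 to 0.56), Cdh13 (0.0014 with the mean of probe sets, 0.11 without SOCS3-null replicate 2; range -0.21 to 0.11), Cdh2 (-0.55 without SOCS3-null replicate 1; range -0.55 to 0.85), Itga4 (-0.081; range -0.081 to 0.28) and Itga9 (-0.011; range -0.011 to 0.034) without wildtype replicate 1, Itga9 (-0.14) and Ctnnb1 (-0.11) with the mean of probe sets, and Fn1 (0.0060 without SOCS3-null replicate 2; range -0.66 to 0.0060; -0.86 with the mean of probe sets). The cause was not tested. Signals near the array median limit what can be said of Itga1, Itga7, Itga8, Itgb4, Cdh4 and Cdh5.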

Other observations

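Some of these genes lie next to each other. On chromosome 8 Cdh8, Cdh11 and Cdh5 follow each other among protein-coding genes of assembly GRCm38.p6: Cdh8 lay below the filter, Cdh11 differed by 0.07 and Cdh5 rose, while neither of the neighbours Cdh3 and Cdh1 was called. On chromosome 13 Itga2 and Itga1 are neighbours, and Itga1 rose while Itga2 stayed between 5.80 and 6.24 on every array. Of 6 tested counter-receptors of integrins and junctional adhesion molecules 1 rose (16.7%, where 13.1% of all genes rose): Jam3 by 0.90, from 46.2 and 50.2 to 90.7 and 118 (limma adjusted p = 0.0261). Jam2 was at 631 and 532 in wildtype and at 205 and 361 in SOCS3-null cells and did not pass (-1.05, limma adjusted p = 0.0848), and Icam1 differed by 0.07 and Vcam1 by 0.28. Among markers of other lineages, 3 of 5 tested neural genes fell (60% on 5 genes, where 9.55% of all genes fell). The neural list summed to 758 and 767 for wildtype against 242 and 225 for SOCS3-null cells. Of 2 tested mesoderm genes 1 rose (50% on 2 genes, where 13.1% of all genes rose). It was Eomes, at 45.5 and 27.7 against 79.1 and 87.5 (limma adjusted p = 0.0456). Mesp1, Mixl1 and Tbx6 stayed at or below the array median on all arrays.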
